A study of Mus musculus with 11 samples.

Results

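The cytochrome P450 genes were taken as every probe whose target name in the files began with CYP and a digit, with CYP27A1 left out. The rule found 97 probes for 75 genes, of 25697 probes for 18138 names on the array. These genes fell into 17 families and 35 subfamilies, and all 75 names matched a current mouse gene symbol. The questions put to them were which subfamilies gave a signal above background in the ileum, and how their signal differed between SKG and BALBc mice.

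Total RNA of whole terminal ileum was amplified and hybridised to Illumina MouseRef-8 v2.0 bead arrays, 1 per mouse. The SKG group consisted of mice on a BALB/c background that carry a point mutation in Zap70, the kinase downstream of the T cell receptor, and the BALBc group was the control strain. All animals were naive and 8 to 12 weeks old, and no group received an agent. Of 11 arrays, the 3 SKG arrays of batch 1 were not used, because the order of their rows did not match their probe names: the rank correlation of their signals with the other arrays was 0.0768 to 0.0966, against 0.838 to 0.947 among the other 8. The results rest on 5 SKG mice (replicates 4 to 8, all in batch 3) and 3 BALBc mice (replicates 1 and 2 in batch 2, replicate 3 in batch 3).

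Batch 3 alone held both strains, and it did so through 1 BALBc animal, so that a difference against BALBc replicates 1 and 2 cannot be told apart from a difference between batches. Median raw signals were 187.5 and 163 on the arrays of batch 2 and 98.5 to 105.6 on those of batch 3. Between 12445 and 14076 probes per array were above background, defined as a detection p under 0.05 against negative control beads. SKG replicate 6 was the most distant SKG animal, at a rank correlation of 0.863 to 0.872 with the other 4, where these had 0.886 to 0.893 among themselves. Of the fixed markers of ileal enterocytes, Fabp6, Slc51a, Slc51b and Fgf15 were above background on all 8 arrays and Slc10a2 on none. Of 8 hepatocyte markers, Alb, Fgb, Tat and Ahsg were above background on no array, Ttr on all 8, Serpina1a on 5, Apoh on 2 and Fga on 1. In whole tissue, fewer cells of a type and less RNA per cell cannot be told apart.

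Cytochrome P450 enzymes are haem proteins that insert 1 atom of oxygen into a substrate, using electrons passed on by P450 reductase or, in mitochondria, by ferredoxin. Families 1 to 3 act mostly on drugs, dietary compounds and other foreign chemicals, family 4 on fatty acids and eicosanoids, and the higher-numbered families on steroids, sterols, bile acids, retinoids and vitamin D. Enterocytes are known for Cyp3a and Cyp2c enzymes, which meet ingested compounds before they reach the liver.

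The ileum gave a clear signal for a minority of these genes. Counting each gene by its best probe, 20 of 75 genes were above background on all 8 arrays, 16 on 1 to 7 arrays and 39 on none. Of the 97 probes, 23 were above background on all 8 arrays, 19 on some and 55 on none. The share on all 8 arrays was 23.7% for the P450 probes and 40.4% for all probes of the array, and the share on none was 56.7% and 34.1%. Between 27 and 38 P450 probes were above background on each array, with the fewest in SKG replicate 6 and the most in SKG replicate 8. These counts describe hybridisation signal. At a detection p under 0.05, a probe at background can pass on single arrays by chance. A probe on no array shows only that its signal was not detectable above the control beads. Among the 55 such probes the lowest detection p on any array was 0.0639, for Cyp2c40.

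Among the enzymes of foreign compounds, the Cyp3a, Cyp2c and Cyp2d subfamilies each had 3 genes above background on all 8 arrays. In Cyp3a these were Cyp3a11, Cyp3a13 and Cyp3a25, while Cyp3a16 and Cyp3a44 were on none. In Cyp2c they were Cyp2c55, Cyp2c65 and Cyp2c67, while 7 of 11 genes were on none (Cyp2c29, Cyp2c37, Cyp2c38, Cyp2c39, Cyp2c40, Cyp2c50 and Cyp2c68) and Cyp2c70 was on 1 array. In Cyp2d they were Cyp2d10, Cyp2d22 and Cyp2d26, with Cyp2d40 on 7 arrays, Cyp2d12 on 4, and Cyp2d9, Cyp2d13 and Cyp2d34 on none. Cyp2e1, the ethanol-oxidising P450, and Cyp2s1, an epithelial P450 found mainly outside the liver, were on all 8. Cyp1b1, which oxidises oestrogens and polycyclic hydrocarbons, was also on all 8, whereas Cyp1a1 and Cyp1a2, the classical targets of the aryl hydrocarbon receptor, were on none, with lowest detection p-values of 0.286 and 0.105. Cyp2b10, a target of the receptor CAR, was on 2 arrays and the other 4 Cyp2b genes on none, and no Cyp2a, Cyp2f or Cyp2g gene was above background on any array.

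Among the fatty acid hydroxylases, the Cyp4f subfamily had the most genes above background on all 8 arrays. Cyp4f13, Cyp4f14 and Cyp4f16 were above background on all 8 arrays, Cyp4f18 on 5, and Cyp4f15 and Cyp4f39 on 1 each, so that no Cyp4f gene was at 0 arrays. Cyp4b1 and Cyp4v3 were on all 8 arrays, and of the Cyp4a genes, known targets of the receptor PPAR alpha, Cyp4a14 was on 1 array and Cyp4a12a, Cyp4a12b and Cyp4a31 on none. Of the arachidonic acid P450s of subfamily Cyp2j, Cyp2j9 was on all 8 arrays, Cyp2j13 on 3 and Cyp2j5, Cyp2j6 and Cyp2j11 on none.

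Enzymes of sterols and hormones were mostly at background. Cyp51, the lanosterol demethylase of cholesterol synthesis, and Cyp7b1, an oxysterol hydroxylase, were above background on all 8 arrays. Cyp7a1, the rate-limiting enzyme of classical bile acid synthesis, and Cyp8b1, which shapes the bile acid pool, were on none. Cyp24a1, which inactivates vitamin D, was on 4 arrays, and Cyp27b1 and Cyp2r1, which activate it, were on none. Cyp26a1 and Cyp26b1, which clear retinoic acid, were on none either, and so were Cyp19a1 and Cyp21a1 of steroid hormone synthesis. Cyp11b2 was on 4 arrays, Cyp17a1 on 3 and Cyp11a1 on 1. Cyp20a1 was on 7 arrays, the fatty acid hydroxylase Cyp2u1 on 4 and the oxysterol hydroxylase Cyp39a1 on 2, while Cyp4x1 and Cyp46a1, known from brain, were on none. In all, 12 subfamilies had a gene above background on all 8 arrays, 9 had one on some arrays only and 14 had none. Of the 9, Cyp4a and Cyp11a rest on 1 array each, which a probe at background can pass by chance.

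**Figure D1:**
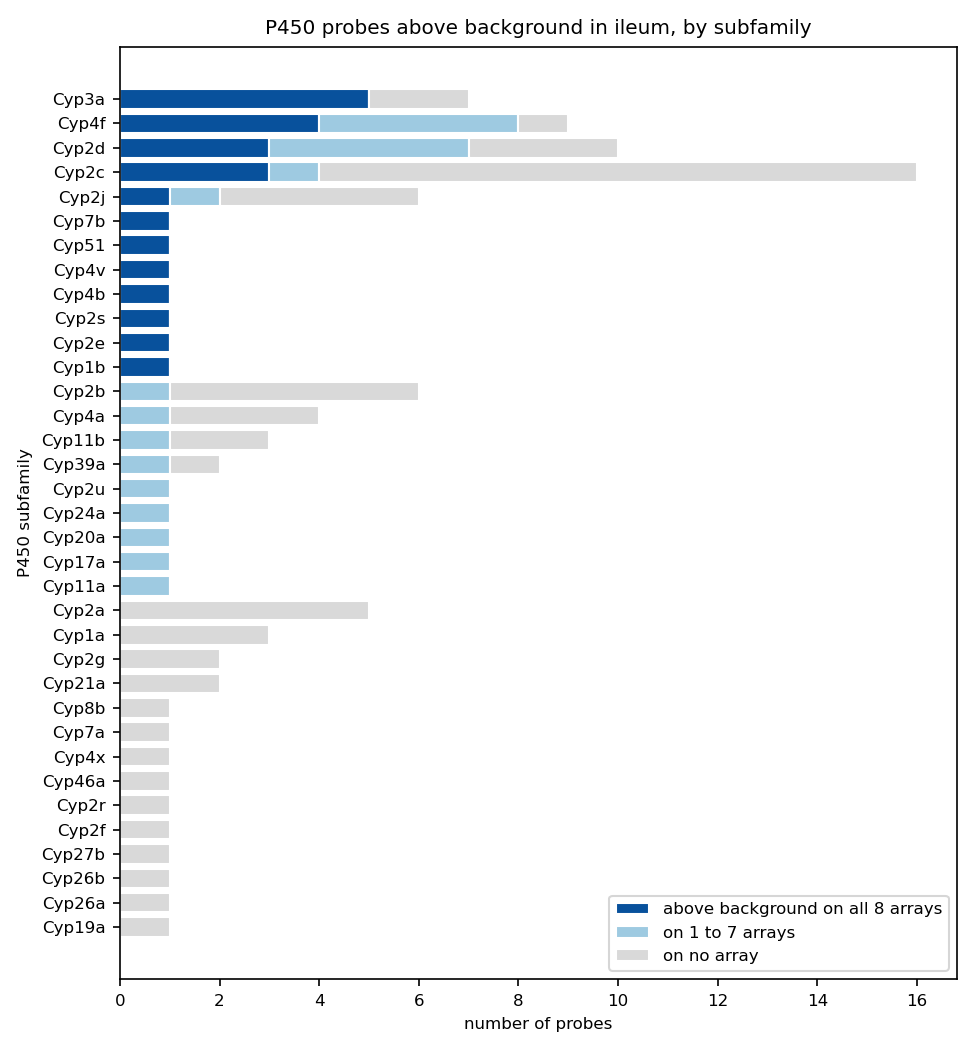
Number of P450 probes (horizontal axis) in each of 35 subfamilies (vertical axis), split into probes above background (detection p under 0.05) on all 8 arrays, on 1 to 7 arrays and on none. The darkest bar is present in 12 subfamilies, and Cyp2c has the longest bar with 16 probes, of which 3 were above background on all 8 arrays.

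More than 1 probe was present for 16 genes, and in 7 of them the probes did not fall in the same class. One Cyp2c67 probe was above background on 8 arrays and the other on 0, and the same split was 4 and 0 for Cyp11b2, 5 and 0 for Cyp4f18, and 2 and 0 for both Cyp2b10 and Cyp39a1. The 3 Cyp2d26 probes were on 8, 7 and 7 arrays and the 3 Cyp4f16 probes on 8, 8 and 7, whereas all 3 Cyp3a13 probes were on all 8. The Cyp2a, Cyp2c, Cyp2d, Cyp3a, Cyp4a and Cyp4f subfamilies hold near-identical genes, and a probe may take up RNA of a neighbour, so single names within them are uncertain.

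Most P450 genes lie in clusters of related genes, and genes of one cluster differed in signal. With member genes joined where their starts lay within 1 Mb, 54 of the 75 genes formed 9 clusters and 21 stood alone. In the Cyp2c cluster of chromosome 19, 3 of 11 genes were above background on all 8 arrays and 7 on none. The cluster of chromosome 7 that runs from Cyp2s1 through the Cyp2b, Cyp2g, Cyp2a and Cyp2f genes held 10 members, of which Cyp2s1 was on all 8 arrays and 8 were on none. In the Cyp2d cluster of chromosome 15 the counts were 3 of 8 on all arrays and 3 on none, and in the Cyp4f cluster of chromosome 17 they were 3 of 5 and 0.

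The comparison of SKG with BALBc asked which of the detected genes differ between the strains. It covered 13775 probes above background on at least 3 of 8 arrays, 35 of them P450 probes of 29 genes, and the other 62 P450 probes were not tested. One P450 probe, that of Cyp2d22, was higher in SKG at an adjusted p under 0.05, where 0.319% of all tested probes were called higher. None was lower, where 0.254% of all tested probes were called lower. At an unadjusted p under 0.05, 6 of 35 P450 probes were higher (background 7.42%) and 0 were lower (background 5.92%). The fitted difference was above 0 for 25 of 35 P450 probes, where 51% of all tested probes were above 0, and its median was 0.46 log2 for the P450 probes and 0.01 for all. Of the 35, 3 had no BALBc array above background. Without them 5 of 32 were higher at an unadjusted p under 0.05 (background 7.16%) and 0 lower (background 5.58%), 22 were above 0 (background 50.6%) and the median was 0.42.

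Cyp2d22 is a member of the drug-metabolising Cyp2d subfamily. Its normalised log2 signal was 10.02, 10.42, 9.70, 9.71 and 10.14 in SKG replicates 4 to 8 and 7.90, 7.85 and 8.34 in BALBc replicates 1 to 3. Every SKG value lay above every BALBc value, by more than 1 log2, and the BALBc animal of batch 3 was the highest of its group. The means were 10.00 ± 0.30 (SD, n = 5) and 8.03 ± 0.27 (SD, n = 3). The fitted difference was 1.78 log2 (SE 0.28), a 3.43-fold higher signal in SKG, with an adjusted p of 0.0218. It was 1.66 against the BALBc animal of the same batch and 2.12 against the 2 animals of batch 2. Over 18 other settings it ranged from 1.52 to 2.13, with adjusted p-values of 0.000125 to 0.0698, and 13 of them passed. The call was lost with batch as a fixed block (adjusted p = 0.0524), in batch 3 alone (0.0698), and without SKG replicate 4 (0.062), SKG replicate 8 (0.0602) or BALBc replicate 2 (0.063).

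**Figure D2:**
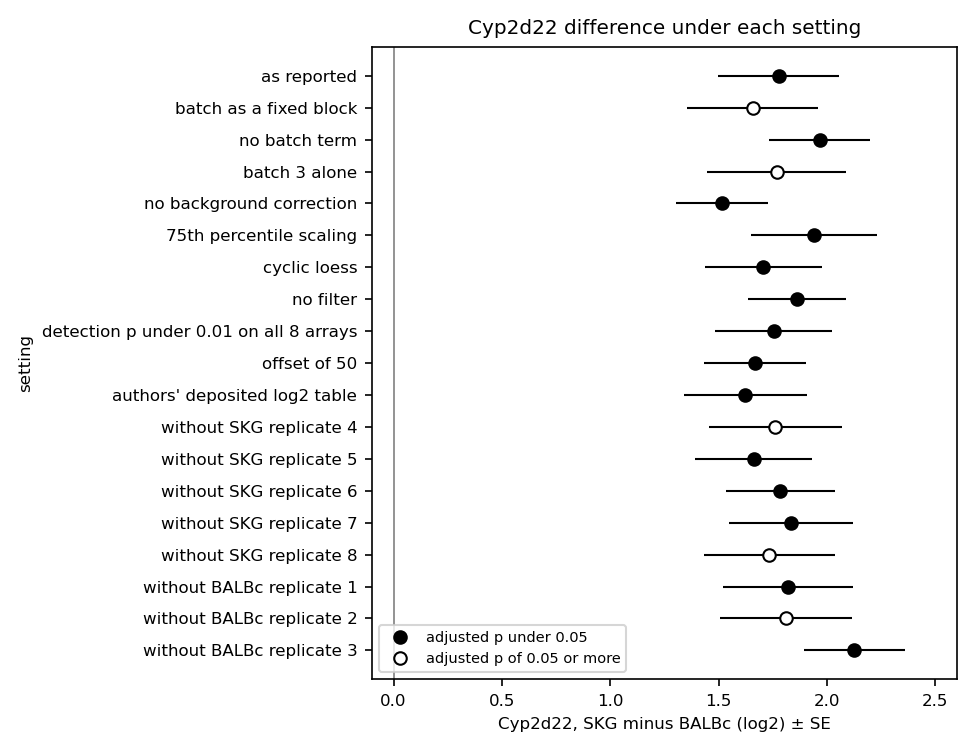
Fitted difference of Cyp2d22 between SKG and BALBc (horizontal axis, log2, bars 1 SE) under the reported setting and 18 others (vertical axis), with filled circles for an adjusted p under 0.05 and open circles otherwise. All points lie between 1.52 and 2.13, and 5 are open.

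Scaling, background correction and the source table moved the balance of calls over all probes, while Cyp2d22 stayed called. The calls over all probes were 44 higher and 35 lower, or 55.7% higher. With scaling to the 75th percentile 69.4% were higher, with cyclic loess 38.2%, without background correction 45.9% and from the authors' deposited log2 values 13.3%. Among these settings only the 75th percentile shifted the median of all probes by more than 0.1, to 0.17. Relative to it, Cyp2d22 stood at 1.77 log2 and the median of the P450 probes at 0.59.

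The other Cyp2d genes did not share the call. Cyp2d40 measured 6.44, 6.07, 5.85, 6.04 and 6.29 in SKG replicates 4 to 8 and 5.55, 5.56 and 4.82 in BALBc replicates 1 to 3. The groups did not overlap, and BALBc replicate 3 was the lowest array. Its fitted difference was 1.13 log2 (SE 0.27, adjusted p = 0.0963), and it passed without SKG replicate 6 (1.33, adjusted p = 0.0193). It also passed without BALBc replicate 3 (0.59, adjusted p = 0.0456), in a fit where batch and strain coincide.

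Cyp2d10 measured 7.11, 6.60, 7.53, 6.76 and 6.47 in SKG and 6.99, 6.76 and 5.80 in BALBc, in the same order of replicates. The groups overlapped through BALBc replicates 1 and 2, and its difference was 0.82 (SE 0.37, adjusted p = 0.365). The brightest Cyp2d26 probe gave 9.28, 8.79, 8.30, 9.26 and 9.20 in SKG and 10.07, 9.61 and 8.00 in BALBc. Here the BALBc animals of batch 2 lay above every SKG animal and the one of batch 3 below all, so that the difference was 0.97 within batch 3 and −0.87 against batch 2 (fitted 0.50, SE 0.43, adjusted p = 0.677). Among genes beside Cyp2d22 on chromosome 15, chosen after the values were seen, Ndufa6 differed by 0.49 log2 (SE 0.29, adjusted p = 0.52) and Smdt1 by 0.16 (SE 0.29, adjusted p = 0.858).

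All SKG values lay above all BALBc values for 5 P450 probes, those of Cyp2d22, Cyp2d40, Cyp2s1, Cyp2u1 and Cyp2j13, which is 14.3% of the 35, where 10% of all tested probes did. Cyp2u1 and Cyp2j13 had no BALBc array above background and were tested through their SKG arrays alone. Among probes above background on at least 1 array of each group the count was 3 of 32 (9.38%), where 9.62% of all such probes did. No P450 probe had all SKG values below, where 5.25% of all tested probes and 4.8% of those above background in both groups did. Cyp2s1 gave 11.35, 11.19, 11.22, 11.14 and 11.10 in SKG and 9.85, 10.18 and 10.87 in BALBc. The SKG animals lay close together (SD 0.10) and the BALBc animal of batch 3 came within 0.34 log2 of their mean, against 1.19 for batch 2. The fitted difference was 0.55 (SE 0.26, adjusted p = 0.382), and without BALBc replicate 3, which leaves strain and batch inseparable, it was 1.19 (adjusted p = 0.000824).

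Cyp2u1, a fatty acid hydroxylase, gave 5.86, 5.61, 4.62, 5.42 and 5.77 in SKG and 4.53, 4.40 and 4.28 in BALBc. It was above background on 4 SKG arrays and on no BALBc array, so its signal was at least 1.59-fold higher in SKG by the lowest signal that counted as above background. It entered the test through SKG arrays alone, and its adjusted p was 0.212 (0.0118 without SKG replicate 6, the lowest SKG array). Without BALBc replicate 3, where batch and strain coincide, its adjusted p was 0.0327. Cyp2j13 gave 4.94, 4.72, 4.44, 6.05 and 4.85 in SKG and 4.35, 4.36 and 4.25 in BALBc. Its 3 arrays above background were all SKG, with a bound of at least 1.16-fold and an adjusted p of 0.493, and SKG replicate 7 stood well above the rest. Cyp17a1, which makes androgen precursors, was likewise above background on 3 SKG arrays and no BALBc array, with a bound of at least 1.03-fold.

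None of the Cyp3a genes was called. The first Cyp3a13 probe (1570164) measured 10.01, 10.33, 9.31, 10.36 and 9.97 in SKG and 9.43, 9.09 and 8.79 in BALBc. Only SKG replicate 6 lay in the BALBc range, and the difference was 1.09 log2 (SE 0.34, adjusted p = 0.2). Without that animal it was 1.30 (adjusted p = 0.0204). The second probe (5570368) gave 10.83, 11.08, 11.00, 11.09 and 10.78 in SKG and 11.10, 10.75 and 9.69 in BALBc. The batch 2 animals lay at either edge of the SKG values, replicate 1 just above and replicate 2 just below them, and BALBc replicate 3 lay well below. Its difference was 0.95 (SE 0.30, adjusted p = 0.201), with 1.26 within batch 3 and 0.03 against batch 2. It was 1.06 (adjusted p = 0.05) without SKG replicate 6 and 1.40 (adjusted p = 0.0467) with scaling to the 75th percentile. The third (4250465), at 5.42, 6.42, 5.02, 6.47 and 6.27 in SKG and 5.74, 5.18 and 4.92 in BALBc, overlapped between the groups and differed by 0.86 (SE 0.46, adjusted p = 0.461). Cyp3a11, a principal drug-oxidising P450 of mouse gut and liver, differed by −0.52 (SE 0.75, adjusted p = 0.818), and Cyp3a25 by −0.05 (SE 0.68, adjusted p = 0.986). Both directions turned without SKG replicate 6, to 0.08 (adjusted p = 0.895) and 0.51 (adjusted p = 0.199).

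Cyp2c55 and Cyp2c67, both of the arachidonic acid and drug oxidising Cyp2c subfamily, had differences that depended on the BALBc animals used. Cyp2c55 gave 10.26, 9.36, 8.60, 9.95 and 9.45 in SKG and 11.31, 11.66 and 9.70 in BALBc. Both batch 2 animals lay above every SKG animal, and BALBc replicate 3 lay among them. Its fitted difference was −0.63 (SE 0.51, adjusted p = 0.645), made up of −0.18 within batch 3 and −1.96 against batch 2. Cyp2c67 gave 7.40, 7.03, 7.41, 7.35 and 7.17 in SKG and 8.77, 8.57 and 6.03 in BALBc. The 5 SKG values lay within 0.4 log2 of each other, below both batch 2 animals and above the batch 3 animal. The fitted difference was 0.57 (SE 0.46, adjusted p = 0.647), not called, with 1.25 within batch 3 and −1.40 against batch 2. Without BALBc replicate 3 the direction turned (−1.40, adjusted p = 0.000423), in a fit where batch and strain coincide. Cyp2c65 differed by 0.37 (SE 0.57, adjusted p = 0.829).

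**Figure D3:**
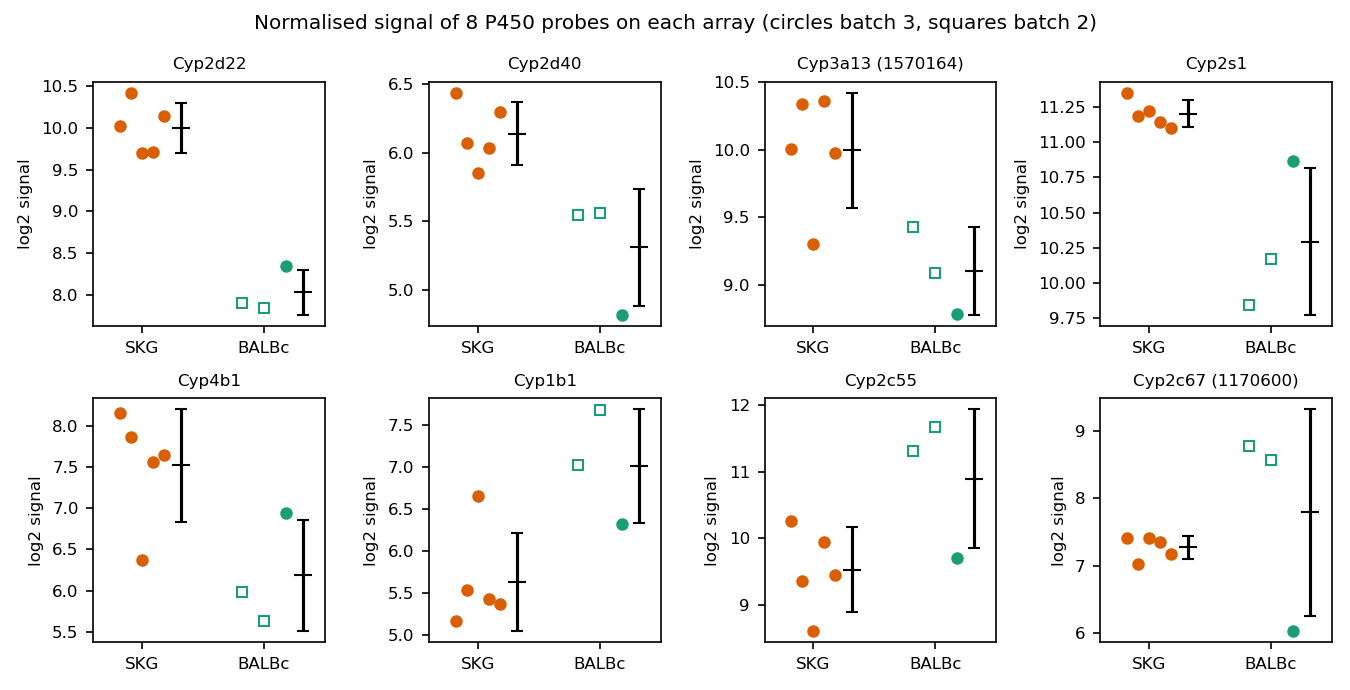
Normalised log2 signal (vertical axes, which differ between panels) of 8 P450 probes on each array, SKG left and BALBc right, with circles for batch 3, squares for batch 2 and bars for the mean ± SD of each group. Cyp2d22 separates the groups with a wide gap, and the Cyp2c67 values of BALBc lie at 8.77 and 8.57 in batch 2 and at 6.03 in batch 3, on either side of the SKG values.

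In family 4, which hydroxylates fatty acids and leukotrienes, 5 genes were among the 20 P450 probes with the smallest p. Cyp4b1 gave 8.16, 7.87, 6.37, 7.56 and 7.65 in SKG and 5.99, 5.63 and 6.94 in BALBc. SKG replicate 6 lay below BALBc replicate 3 and the other 4 lay above all BALBc animals. The difference was 0.87 (SE 0.49, adjusted p = 0.48). Without BALBc replicate 3 it was 1.73 (adjusted p = 0.00925), in a fit where batch and strain coincide. Cyp4f13 gave 11.12, 11.14, 11.69, 10.98 and 10.74 in SKG and 9.87, 9.90 and 10.91 in BALBc. BALBc replicate 3 lay within the SKG range and the batch 2 animals below it. The difference was 0.22 within batch 3 and 1.25 against batch 2 (fitted 0.48, SE 0.33, adjusted p = 0.578). Without BALBc replicate 3, where batch and strain coincide, it was 1.25 (adjusted p = 0.00371).

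Cyp4f14 gave 13.38, 13.41, 13.22, 13.52 and 13.35 in SKG and 13.73, 13.22 and 12.85 in BALBc. The BALBc animals spread around the SKG animals, and the difference was 0.36 (SE 0.25, adjusted p = 0.591). With scaling to the 75th percentile it was 1.10, with an adjusted p of 0.0497. Cyp4v3 gave 10.87, 11.00, 10.56, 10.73 and 10.80 in SKG and 11.41, 10.84 and 9.92 in BALBc. It overlapped too, with a difference of 0.56 (SE 0.31, adjusted p = 0.473) that was 0.87 within batch 3 and −0.33 against batch 2.

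The 3 Cyp4f16 probes disagreed. The first (2230376) gave 11.83, 12.08, 11.76, 11.92 and 11.37 in SKG and 11.39, 10.88 and 11.28 in BALBc. SKG replicate 8 alone reached into the BALBc range, and the difference was 0.55 (SE 0.28, adjusted p = 0.424). The second (540075) was at 10.67 and 10.31 in batch 2 and at 8.39 in BALBc replicate 3, with the SKG animals from 8.98 to 9.69 between them, and the third (4050678) differed by −0.03 (SE 0.63, adjusted p = 0.991).

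Cyp1b1 was the P450 probe with the largest fitted difference below 0. It gave 5.17, 5.53, 6.65, 5.43 and 5.37 in SKG and 7.03, 7.68 and 6.33 in BALBc. The other 4 SKG animals lay below all BALBc animals, and SKG replicate 6 lay among them. The difference was −0.96 (SE 0.45, adjusted p = 0.39), −0.69 within batch 3 and −1.72 against batch 2. Without BALBc replicate 3, where batch and strain coincide, it was −1.74 (adjusted p = 0.00619). Markers of T cells and macrophages were lower in SKG by sign in 6 of 6 and 5 of 5 tested genes, and those of smooth muscle in 4 of 4. Of these, the T cell genes Itgae (−2.77, adjusted p = 0.00338) and Cd6 (−2.97, adjusted p = 0.0405) were called. Cd8a was above background on no array. The log2 of the signal summed over the tested T cell markers was 8.25 to 9.30 in SKG and 10.44 to 11.26 in BALBc, and that of macrophages 8.87 to 9.41 and 9.75 to 10.06. The smooth muscle sums overlapped, at 13.85 to 14.23 in SKG and 13.79 to 14.65 in BALBc. The part of these cells in the Cyp1b1 values was not tested.

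Cyp51 gave 9.46, 10.25, 8.79, 10.04 and 9.94 in SKG and 9.93, 9.55 and 8.89 in BALBc. The groups overlapped, with a difference of 0.59 (SE 0.43, adjusted p = 0.605). Cyp7b1 gave 6.33, 6.75, 6.76, 6.54 and 6.67 in SKG and 6.06, 6.77 and 7.12 in BALBc. It overlapped as well (−0.33, SE 0.29, adjusted p = 0.679). Cyp2e1 spread widely in both groups, from 7.33 to 9.54 in SKG and from 5.28 to 8.03 in BALBc (0.81, SE 0.79, adjusted p = 0.716). The tested probes not described one by one had fitted differences between −0.40 (Cyp4f18) and 0.35 (Cyp24a1).

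The P450 differences depended on which BALBc animals served as control. Batch 3 holds 1 BALBc animal, so its batch and the animal itself cannot be told apart. Against BALBc replicate 3 the median difference of the 35 probes was 0.44 log2, where all tested probes had 0.02. Above 0 were 27 probes, where 7084 of all 13775 were. Against BALBc replicates 1 and 2 the median was 0.03, where all had 0.15. Above 0 were 20 probes, where 8041 of all 13775 were, a similar share. In 13 of 35 probes the sign differed between these contrasts, and in 10 of the 13 the probe was higher in SKG within batch 3. The share of all tested probes with such a change of sign was not computed. BALBc replicate 3 itself differed from the batch 2 animals by a median of −0.47 over the P450 probes (range −2.64 to 1.58), where all tested probes had 0.14. The fitted values lay mostly near the contrast within batch 3, which rests on that animal, and without it the median of the P450 probes was 0.03, below that of all probes (0.16). Without it, batch and strain coincide, and 7 P450 probes were called higher and 6 lower, where 2948 and 2193 of all probes were called.

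**Figure D4:**
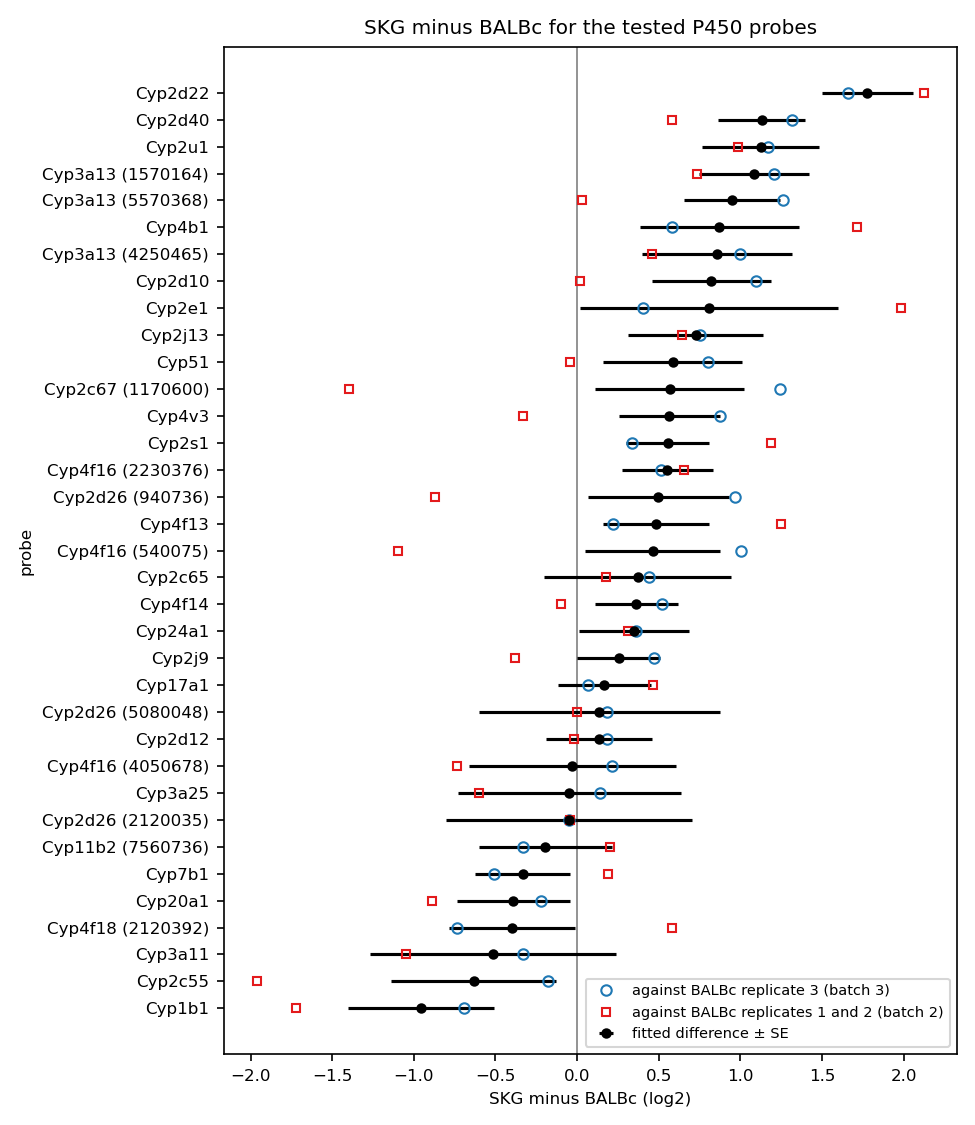
Difference between SKG and BALBc (horizontal axis, log2) for the 35 tested P450 probes (vertical axis), with black circles for the fitted difference ± 1 SE, open circles for SKG against BALBc replicate 3 and squares for SKG against BALBc replicates 1 and 2. Cyp2d22 lies farthest right at 1.78 in the fit, and for 13 probes the circle and the square lie on opposite sides of 0.

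One SKG animal had low signal for a group of P450 genes. In SKG replicate 6, 6 of 35 P450 probes lay more than 1.5 log2 below the median of the other 4 SKG animals, where 2% of all tested probes did, and 1 (Cyp2e1) lay as far above it, where 0.755% did. The animal was the lowest of the 5 SKG mice for 22 of 35 probes (62.9%), where it was for 34.9% of all tested probes. Cyp3a11 measured 8.72, 9.09, 8.59 and 9.45 in SKG replicates 4, 5, 7 and 8 and 6.35 in replicate 6, with BALBc at 9.61, 9.37 and 8.77. Cyp3a25 measured 10.25, 10.39, 10.31 and 10.66 in those replicates and 7.99 in replicate 6, with BALBc at 10.56, 10.48 and 9.78. In both, replicate 6 was the lowest of all 8 arrays and the other 4 SKG animals overlapped the BALBc animals.

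Cyp2c65 measured 8.87, 8.47, 8.59 and 8.72 in SKG replicates 4, 5, 7 and 8 and 6.65 in replicate 6, with BALBc at 8.17, 8.00 and 7.82. Replicate 6 was again the lowest array, and the other 4 lay above all BALBc animals. Cyp2d26 probes 5080048 and 2120035 and the third Cyp4f16 probe were not above background in replicate 6, so they have a bound only. The median of the other 4 SKG animals was at least 4.39-fold, 4.00-fold and 3.58-fold higher, and with such bounds the count stayed at 6 of 35, where 1.62% of all tested probes passed. Taken as replicate 6 minus the median of the other 4, the log2 difference was −0.93 for the brighter Cyp2d26 probe 940736 and −0.11 and 0.34 for the other Cyp4f16 probes. Cyp4b1 was at −1.39, Cyp51 at −1.20 and Cyp2c55 at −1.10, while Cyp2e1 was at 1.51 and Cyp1b1 at 1.25. The Cyp2d22 value lay near that median, at −0.38.

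**Figure D5:**
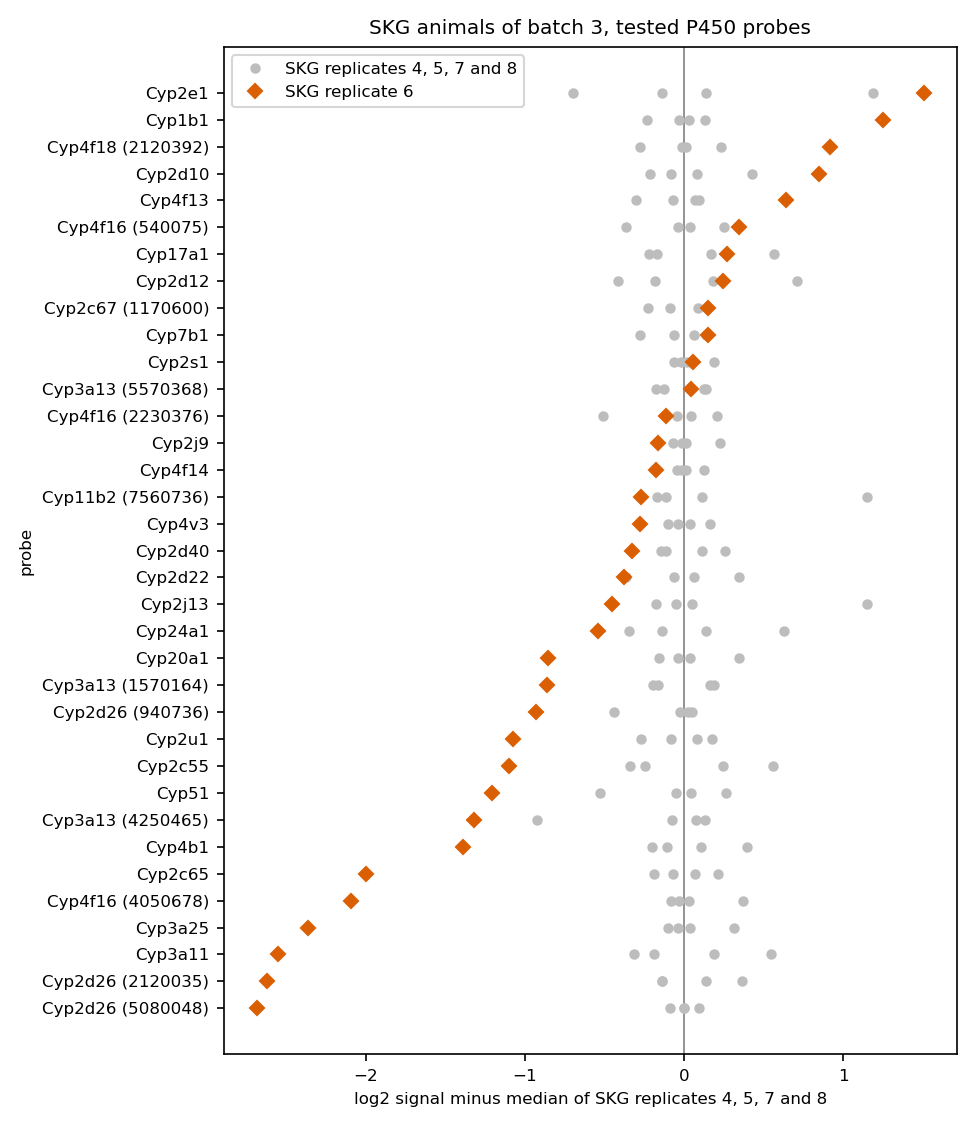
Normalised log2 signal of each SKG animal minus the median of replicates 4, 5, 7 and 8 (horizontal axis) for the 35 tested P450 probes (vertical axis), with a diamond for replicate 6 and grey points for the other 4. The 6 diamonds more than 1.5 log2 below 0 are those of Cyp3a11, Cyp3a25, Cyp2c65, 2 Cyp2d26 probes and 1 Cyp4f16 probe, and that of Cyp2e1 lies 1.51 above 0. The Cyp2d26 and Cyp4f16 diamonds among the 6 are values not above background.

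Markers also differed in that animal. The summed signal of enterocyte markers was 15.01 log2, within the 14.96 to 15.06 of the SKG group. Crypt markers were at 8.27, where the other 4 SKG animals had 9.34 to 9.58, and B cell markers at 9.76, where they had 7.91 to 8.63. The summed signal of ileal enterocyte markers was 14.94, where the other 4 SKG animals had 14.95 to 15.04. Its members went both ways from the median of the others. Slc51b, a bile acid exporter subunit, stood at −1.37 log2 and Fgf15 at −0.51, while Slc51a stood at 0.33 and Fabp6 at 0.19. The part of these differences in the P450 values was not tested. Without SKG replicate 6, 434 of 13582 tested probes were called higher and 320 lower. Of 34 P450 probes in that fit 5 were called higher and 0 lower. They were those of Cyp2d22, Cyp2d40, Cyp2u1 and 2 of Cyp3a13. Cyp2u1 had no BALBc array above background and was tested through SKG arrays alone.

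Promoter sequences are shown for Cyp3a11, Cyp3a25, Cyp3a13 and Cyp2d26, chosen for their values in SKG replicate 6. The Cyp3a11, Cyp3a25 and Cyp2d26 probes were each lower there than in the other 4 SKG animals. The Cyp3a13 probes differed among themselves (0.04, −0.86 and −1.32 from the median of the others). Those at −0.86 and −1.32 were also lower than in each of the other 4. No sequence is shown for Cyp2c65, which was low in replicate 6 too. Each runs from 250 bases before the start of transcription to 50 after it (RefSeq, build GRCm38.p6), 5′ to 3′ along the gene, and capitals mark motifs found on either strand. TATAAA is the core of a TATA box. Many nuclear receptors bind the hexamer AGGTCA, and its variant AGTTCA occurs in elements of the pregnane X receptor. GATA factors bind GATAAG. None of the marked matches overlapped another. Cyp3a25 has a further start 1 base away with the same matches.
Cyp3a11, chr5:145879805-145880104, minus strand: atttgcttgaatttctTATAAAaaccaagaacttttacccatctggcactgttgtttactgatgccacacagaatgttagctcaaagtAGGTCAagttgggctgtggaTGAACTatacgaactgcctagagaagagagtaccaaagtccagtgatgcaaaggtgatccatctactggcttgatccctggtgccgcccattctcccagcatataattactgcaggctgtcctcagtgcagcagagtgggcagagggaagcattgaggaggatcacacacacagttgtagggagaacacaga
Cyp3a25, chr5:146009569-146009868, minus strand: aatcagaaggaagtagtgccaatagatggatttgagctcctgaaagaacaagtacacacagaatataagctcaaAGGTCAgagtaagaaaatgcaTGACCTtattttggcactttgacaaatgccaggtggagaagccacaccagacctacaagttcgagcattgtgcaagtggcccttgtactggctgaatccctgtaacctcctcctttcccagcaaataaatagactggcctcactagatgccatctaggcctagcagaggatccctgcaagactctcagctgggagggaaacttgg
Cyp3a13, chr5:137921570-137921869, minus strand: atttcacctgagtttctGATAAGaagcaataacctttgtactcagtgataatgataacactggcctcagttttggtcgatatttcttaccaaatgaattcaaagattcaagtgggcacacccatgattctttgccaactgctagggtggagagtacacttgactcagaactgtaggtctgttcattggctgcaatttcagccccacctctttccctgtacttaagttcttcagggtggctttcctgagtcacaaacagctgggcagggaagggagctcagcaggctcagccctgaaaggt
Cyp2d26, chr15:82794196-82794495, minus strand: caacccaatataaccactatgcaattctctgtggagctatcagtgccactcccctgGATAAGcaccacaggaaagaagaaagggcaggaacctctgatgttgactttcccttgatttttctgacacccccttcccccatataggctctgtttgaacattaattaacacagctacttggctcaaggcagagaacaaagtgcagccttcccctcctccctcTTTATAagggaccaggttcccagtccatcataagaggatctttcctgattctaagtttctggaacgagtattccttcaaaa

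Cyp3a11 held a TATA motif 234 bases before its start, AGGTCA 162 bases before it and the variant hexamer on the other strand 142 bases before it. Cyp3a25 held AGGTCA 176 bases before its start and the same hexamer on the other strand 155 bases before it. Cyp3a13 held neither hexamer in this window but had the GATA motif 233 bases before its start. Cyp2d26 also held neither hexamer. It had the GATA motif at 194 bases and the TATA motif, on the other strand, at 31 bases before its start. Of all 32851 promoters of this length, 16.3% held AGGTCA, and so did 17 of the 65 promoters (26.2%) of the 56 P450 genes in the RefSeq table. The variant hexamer was in 14% of all and in 9 of 65 (13.8%), the TATA motif in 13.6% of all and in 26 of 65 (40%), and the GATA motif in 7.44% of all and in 7 of 65 (10.8%). These matches are of letters only, and a link between them and the values of SKG replicate 6 was not tested.

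Receptors and factors that control P450 genes were more often higher than lower by sign, without a call. Of 16 listed genes 14 were tested, 11 were higher in SKG by sign and 3 lower, and 0 passed, with a median of 0.45 log2 where all tested probes had 0.01. Arnt, the partner of the aryl hydrocarbon receptor, differed by 1.16 (SE 0.26, adjusted p = 0.0786), and Rxra, the common partner of nuclear receptors, by 1.04 (SE 0.22, adjusted p = 0.0757). For both, all SKG values lay above all BALBc values. Nr1i2, the pregnane X receptor that drives Cyp3a11, differed by 1.18 (SE 0.31, adjusted p = 0.133). The SKG animals lay between 8.67 and 9.18 and the BALBc animals at 8.80, 8.57 and 7.39, so that the groups overlapped through BALBc replicate 1 and BALBc replicate 3 was far below. Ahr and Nr0b2 were above background on no array.

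The electron donors and partners of P450 enzymes showed no shared direction. Of 10 genes 7 were tested, 3 were higher by sign and 4 lower, and 0 passed (median −0.02). Por, the P450 reductase, differed by 0.25 (SE 0.31, adjusted p = 0.784). Cyb5a, the cytochrome that assists some P450 enzymes, was at 11.21 and 11.09 in batch 2 and at 8.84 in BALBc replicate 3, where the SKG animals had 8.39 to 8.87. The batch 2 animals alone stood apart.

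Genes that act after or beside the P450 enzymes were called once. Of 25 tested phase II enzymes and transporters, 13 were higher by sign, 12 lower and 0 passed (median 0.08), with Abcc2, a conjugate exporter, at 1.66 (SE 0.35, adjusted p = 0.0757). Cholesterol synthesis genes beside Cyp51 split into 7 and 7 of 14 tested (median 0.10), and 0 passed. Of 12 tested PPAR alpha targets 10 were higher by sign and 0 passed (median 0.34). Of 10 tested eicosanoid genes 8 were lower by sign and 0 passed (median −0.23). Of 13 tested retinoid genes 8 were higher by sign and 1 passed (median 0.06): Rdh7, a retinol dehydrogenase. Rdh7 measured 9.62, 8.97, 8.67, 9.60 and 9.36 in SKG replicates 4 to 8 and 8.44, 7.65 and 6.74 in BALBc replicates 1 to 3. All SKG values lay above all BALBc values, and the difference was 2.17 log2 (SE 0.41, adjusted p = 0.0468).

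Some markers of neighbouring tissue differed beside these results. Of 7 genes of the exocrine pancreas, Cela1 alone was tested, and it was called higher in SKG at 1.49 log2 (SE 0.23, adjusted p = 0.0199). It measured 6.98 to 7.39 log2 in SKG and 5.53 to 5.79 in BALBc. Ctrb1 was above background on 2 arrays and Cela2a on 1, and Cpa1 and Pnlip were above background on no array. Of the markers of the proximal small intestine 2 of 6 were tested, with a level summed over both of 11.94 to 12.81 in SKG and 11.10 to 11.46 in BALBc and with Gata4 and Fabp1 on no array. The 2 tested hepatocyte markers summed to 7.48 to 7.97 in SKG and 7.22 to 7.85 in BALBc, so that the groups overlapped. The part of proximal or pancreatic RNA in the P450 differences was not tested.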

How the data were processed

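RNA of terminal ileum from 8 of 11 mice was analysed, grouped by the sample descriptions. Per the file headers, the authors deposited mean bead intensity as GenomeStudio 1.9.0 gave it, without normalisation. The deposited detection column is a fraction, 1 minus the detection p. The authors' deposited log2 table covers 5045 probes, 14 of them P450 probes, and served as an alternative. Differences between arrays of batch 3 in it matched those from the sample files at rank correlations of 0.723 to 0.896. For arrays of batch 2 against batch 3 the rank correlations were 0.139 to 0.450. How that table was centred stays unknown. The medians of its columns were 0.0196 to 0.0703 in SKG and, in BALBc replicates 1 to 3, 0.186, 0.152 and 0.00801. The submitters' processing notes name limma with no version.

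Signals went through neqc of limma 3.58.1 (R 4.3.3, statmod 1.5.0), which corrects background with normexp from detection p, adds an offset of 16, normalises by quantiles and takes log2, with tables and plots made in Python 3.11.15. Probes above background (detection p under 0.05) on 3 or more of 8 arrays were tested by limma, SKG minus BALBc, two-sided, with batch as a random block (consensus correlation 0.5453) and Benjamini-Hochberg adjustment over 13775 probes at 0.05. A fitted difference weighs the batches and is not the difference of group means. A probe above background on no array of a group has only a bound. In it the brighter group's mean stands against the dimmer group's mean, where each array enters with its own value or, if that is larger, its lowest value above background. No probe's level was set against another's. The fit was tested on simulated data with 100 changed probes at each size. It called 31 of those changed by 1 log2 and 75 of those changed by 2 log2, with 9 false calls. A P450 difference of 1 log2 could thus go uncalled. The simulated batch shifts were drawn with the median SD of the SKG animals. In the P450 probes BALBc replicate 3 differed from the batch 2 animals by −2.64 to 1.58 log2.

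The P450 genes and all lists were chosen with earlier results of these data known. Values on every array and the test are given for P450 probes past the threshold, the 20 with the smallest p and those whose groups do not overlap. Probes stand for a gene by most arrays above background, then signal. The number of arrays limits precision. P450 probes had 16 to 54 beads per array. Counts restricted to probes above background in both groups, and bounds for SKG replicate 6, were added after the values were seen. Alternatives changed the batch term, background correction, scaling, offset, filter, source table and the replicates used.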

Additional observations from a re-analysis of the deposited data

Results flagged for a closer look

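In 8 of the 35 tested P450 probes 1 of the 5 SKG animals stood apart, by a gap to the nearest animal of more than 0.71 of the group's range (Dixon's critical value for 5 samples). Chance gives about 1 in 20 groups, and the share over all tested probes was not computed. The 3 BALBc animals were too few for this comparison. Of the 8, 7 concern SKG replicate 6, and they were not shown to be particular to P450 probes. SKG replicate 6 was the most distant SKG animal over all probes. It was the lowest animal for 6 probes, with a gap of 0.7231 of the range for Cyp3a11, 0.8455 for Cyp3a25, 0.819 for Cyp2c65, 0.8309 and 0.9346 for Cyp2d26 probes 2120035 and 5080048, and 0.8166 for Cyp4f16 probe 4050678. The last 3 probes were not above background in that animal. It was the highest for Cyp1b1, with a gap of 0.7563. SKG replicate 5 was the highest for Cyp11b2 probe 7560736, an aldosterone synthase probe, with a gap of 0.7299 and a log2 signal of 5.87 where the next animal had 4.84.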

How the results depend on the processing

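Over 18 alternatives (8 of them leaving out 1 animal), 317 of 343 results for the 20 P450 probes described with their tests kept their direction and their side of the threshold. The call was lost in 5, all of Cyp2d22, while 13 gained one and 8 changed direction. The median of the P450 probes exceeded that of all probes in 17 of 18 alternatives, the exception being the fit without BALBc replicate 3. No P450 probe was called higher with batch as a fixed block or in batch 3 alone (0 each), and 3 were with scaling to the 75th percentile (Cyp2d22, Cyp3a13 and Cyp4f14). Leaving out 1 animal gave 0 to 7 higher and 0 to 6 lower. Over all probes, the calls higher were 29 with the fixed block, 428 with no batch term, 15 in batch 3 alone, 102 at the 75th percentile, 26 with cyclic loess, 81 with no filter and 10 in the authors' deposited table, and 8 to 2948 when 1 animal was left out. Calls lower were 273 with no batch term, 22 with a detection p under 0.01 on all 8 arrays, 65 in the authors' deposited table, and 18 to 2193 when 1 animal was left out. The P450 median was 0.14 with no batch term, 0.76 at the 75th percentile, 0.065 with no filter, where all 97 probes enter, and 0.031 to 0.53 when 1 animal was left out. With no batch term Cyp2c67 turned to −0.52 and Cyp2d26 (probe 940736) to −0.26. Leaving out 1 animal gave −1.40 to 0.83 for Cyp2c67, −0.87 to 0.86 for Cyp2d26, −0.33 to 0.75 for Cyp4v3, −0.091 to 0.49 for Cyp4f14, −0.042 to 0.90 for Cyp51 and −0.45 to 0.19 for Cyp7b1, each turning its direction without BALBc replicate 3. That fit had no batch term and sets batch 3 against batch 2, and otherwise the cause was not tested. The number of P450 probes above background on all arrays was 21 at a detection p under 0.01 and 23 to 27 when 1 array was left out. Low signal limits the 62 P450 probes that were not tested. No paired analysis was possible, because each array held 1 mouse and the labels pair no SKG animal with a BALBc animal.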
